A study of Mus musculus with 12 samples.

Results

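The coagulation and plasminogen system genes described here were 9 of the 24421 gene symbols in the deposited RNA-seq tables, namely F3, Tfpi, F2r, Thbd, Procr, Proc, Plau, Plat and Plaur. They were taken by symbol, from a list drawn up with earlier results of these data known, and a symbol with several deposited transcripts (Proc with 5 and Tfpi with 3) was read from the one with most counts over the 12 libraries. Whole kidneys of male C57BL/6 mice (a C57BL/6J background in the methods) at 6 weeks of age gave 12 libraries in 4 groups of 3. Baseline libraries came from WT and Tet2-/- mice labelled as healthy controls, and IR libraries from mice of both genotypes whose right renal pedicle had been clamped for 60 min, taken 24 h later. Tet2 encodes a dioxygenase that oxidizes 5-methylcytosine in DNA, and the Tet2-/- mice were bred from heterozygous pairs, so the deletion was not limited to a cell type. In the IR mice the left kidney was also removed. The methods count the baseline mice apart from those used for IR and sham operation, so they were taken as not operated, which neither labels nor methods say outright. On that reading ischemia and surgery cannot be told apart when IR-insulted kidneys are compared with baseline kidneys.

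Total counts on 1 transcript per symbol ran from 51007366 to 107969888 per library. Tet2 itself was not lower in the baseline libraries labelled Tet2-/- (9.25 to 16.6 FPKM) than in WT baseline libraries (6.25 to 9.15 FPKM). After IR it was at 1.76 to 3.20 FPKM in the labelled Tet2-/- libraries and at 3.86 to 9.34 FPKM in WT libraries, and which exons the deletion removes is not given in the sources used here, so the groups are called by their labels. FPKM is the number of fragments per unit of transcript length and of mapped reads, so it can be compared between genes. Some libraries stood apart: WT IR replicate 1 had a summed FPKM of 316 over 5 tubular injury markers against 1096 and 981 in the other WT IR libraries and 2786 to 2988 in the labelled Tet2-/- IR libraries. WT IR replicate 3 was low in endothelial markers (23.1 against 78.05 to 107 in the other WT IR libraries), and the adipocyte gene Adipoq was high in WT baseline replicates 2 and 3 (3.01 and 15.6 FPKM) and in Tet2-/- IR replicate 3 (10.01 FPKM), with at most 0.273 FPKM elsewhere. Thick ascending limb markers were low in WT baseline replicate 2 and in Tet2-/- IR replicate 3 (387 against 2112 and 2616 in the other labelled Tet2-/- IR libraries). Proximal tubule transcripts such as Lrp2 (19.0 to 106 FPKM) were present in all libraries, and Alb, which marks hepatocytes, lay between 0.203 and 0.919 FPKM. The summed FPKM of 6 hepatocyte markers with Alb was 8.25 to 105, with Ttr alone at 6.03 to 95.8 FPKM.

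Blood clotting starts when tissue factor, encoded by F3, binds factor VII on a cell surface, and tissue factor pathway inhibitor (Tfpi) blocks this step. Thrombin then cleaves fibrinogen and signals through the receptor encoded by F2r. On endothelial cells thrombomodulin (Thbd) and the endothelial protein C receptor (Procr) together turn thrombin towards activation of protein C (Proc), which slows clotting. Clots are dissolved by plasmin, which urokinase (Plau) and tissue plasminogen activator (Plat) make from plasminogen, and Plaur encodes the receptor that holds urokinase on the cell surface. In the kidney urokinase is made by tubular cells, and protein C of the blood comes mainly from the liver.

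In the IR-insulted kidneys labelled Tet2-/- 7 of the 9 genes had their highest mean level of the 4 groups and Proc its lowest. A gene was called when edgeR's quasi-likelihood test over all genes gave an adjusted p under 0.05 and its log2 fold change was over 1 or under -1. Against labelled Tet2-/- baseline kidneys, 7 of the 9 genes were called higher (F3, F2r, Thbd, Procr, Plau, Plat and Plaur) and Proc was called lower, where 12.7% of the 16359 genes tested were called higher and 11.6% lower. None of the 9 was called for IR in WT kidneys (1.46% of all tested genes were called higher and 0.887% lower), although 4 had an unadjusted p under 0.05 (22.7% of all tested genes did) and DESeq2 called 1, F3 (over all genes it called 490 higher and 492 lower). With the replicate number as a block 1 was called there, Plaur (over all genes 428 higher and 559 lower). After IR, Procr was called higher and Proc lower in labelled Tet2-/- kidneys than in WT kidneys, where 2.3% of all tested genes were called higher and 3.85% lower. In that comparison 7 of the 9 had an unadjusted p under 0.05 (28.9% of all tested genes did) and DESeq2 called 6 (over all genes 775 higher and 880 lower). A fit of all 12 libraries called 4 (over all genes 714 higher and 879 lower), and a fit with the replicate number as a block called 5 (477 and 616). With a library left out 1 to 3 were called (65 to 319 higher and 229 to 623 lower over all genes). At baseline none was called between genotypes (0.0124% of all tested genes were called higher and 0% lower), although 2 had an unadjusted p under 0.05 (11.8% of all tested genes did) and DESeq2 called 1, Plat (over all genes it called 23 higher and 297 lower).

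**Figure D1:**
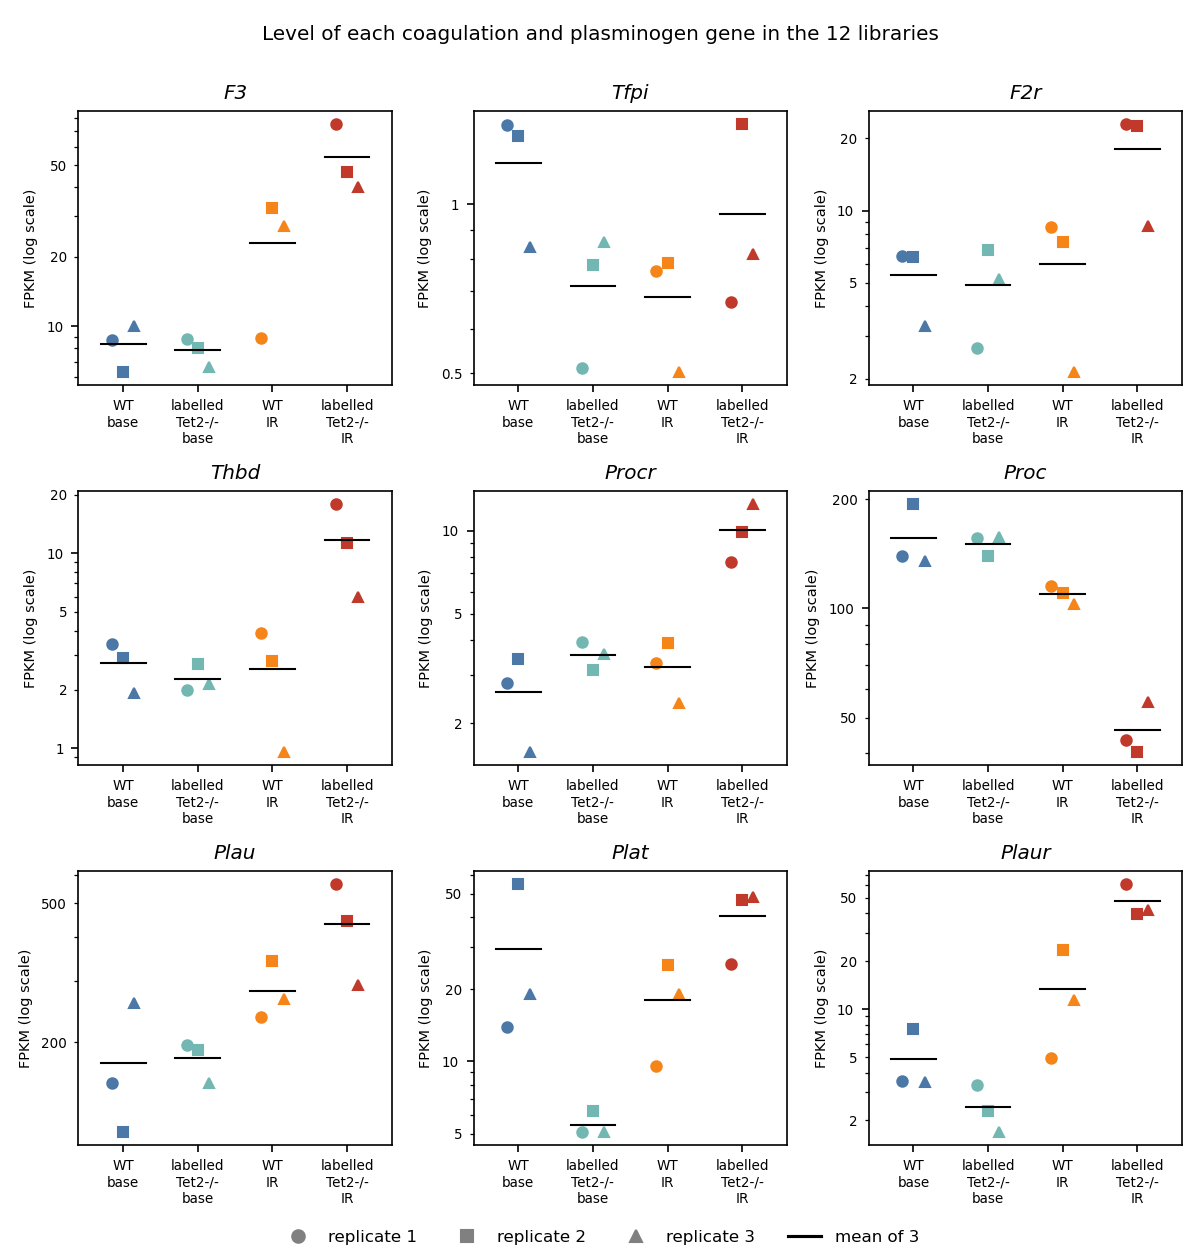
FPKM (log axis) of the 9 genes in each of the 12 libraries, with a symbol for each replicate and a line at the mean of 3. In F3, F2r, Thbd, Procr, Plat and Plaur the 3 labelled Tet2-/- IR libraries lie above all 3 WT IR libraries, in Proc they lie below them, and in Tfpi and Plau the groups overlap. The margin is narrow for Plat (25.5 against 25.3 FPKM) and F2r (8.64 against 8.51 FPKM). Of all tested genes 22% were higher and 14.6% lower without overlap.

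Medians of the set are given beside those of all tested genes. The median log2 fold change of the 9 genes was -0.05 between genotypes at baseline (0.00 over all tested genes), 1.14 between genotypes after IR (0.04), 0.06 for IR in WT (-0.03) and 1.60 for IR in labelled Tet2-/- kidneys (0.04). The comparisons share libraries, so they are not independent of each other. Nothing in the labels names a shared litter or operation day, so the p values measure the spread between these 3 mice of a group. The main fits had no replicate block, although same-numbered libraries of a genotype moved together (correlations of 0.122 to 0.344 between baseline and IR).

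**Figure D2:**
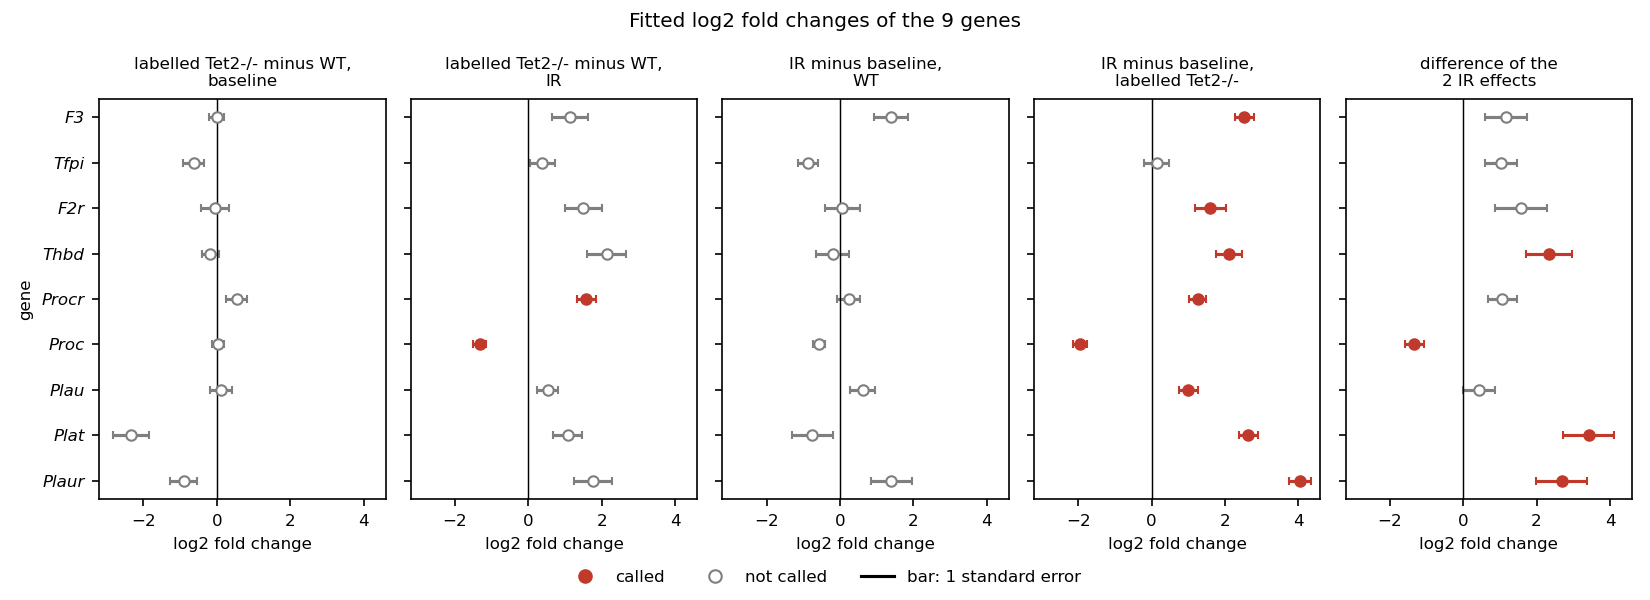
Fitted log2 fold change of each gene (horizontal axis) with 1 standard error to each side, for the 4 comparisons and for the difference between the IR effects. Filled red points were called; 8 of the 9 genes were called for IR in the labelled Tet2-/- kidneys (12.7% of all tested genes were called higher and 11.6% lower) and 0 for IR in WT kidneys (1.46% and 0.887%).

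Promoters of the genes are shown because 7 of the 9 genes were called higher together for IR in the labelled Tet2-/- kidneys, and the letters upstream of them can be set side by side. RefSeq promoters on GRCm38.p6 (a later build than the mm9 coordinates of the count tables) were matched by symbol for 5 of the 9 genes, F3, Procr, F2r, Plaur and Tfpi, and not for Thbd, Plat, Plau and Proc. In these 5 the 250 bases before each start were searched on both strands for TGANTCA, the letters bound by AP-1, a factor made of Fos and Jun proteins. The following stretches, written 5′ to 3′ on the strand of the gene, hold these letters in capitals.
F3 (chr3:121723361-121723438, plus strand): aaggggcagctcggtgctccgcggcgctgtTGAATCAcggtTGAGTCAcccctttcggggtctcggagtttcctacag
Plaur (chr7:24462384-24462450, plus strand): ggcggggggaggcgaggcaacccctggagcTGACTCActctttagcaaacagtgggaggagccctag
Procr (chr2:155751033-155751099, plus strand): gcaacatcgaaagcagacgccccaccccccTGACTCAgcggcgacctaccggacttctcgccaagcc
F2r (chr13:95618634-95618700, minus strand): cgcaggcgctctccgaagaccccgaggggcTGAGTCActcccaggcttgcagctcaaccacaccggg
The F3 stretch holds the letters at 2 places, 140 and 129 bases before the start. In Plaur they lie 63 bases before the start, in Procr 148 and in F2r 198. Of all 32851 RefSeq promoters searched in the same way, 6.75% hold the letters and 0.338% hold them 2 or more times. Neither of the 2 promoters listed for Tfpi holds them in its 250 bases. Other letters searched were GGGCGG (SP1, in 32.7% of all promoters), CACCC (KLF, in 52.0%), TATAAA (the TATA box, in 12.4%) and ACGTG or GCGTG (hypoxia response, in 38.6%). GGGCGG occurred 3 times each in F3 and Plaur, 1 time each in F2r and both Tfpi promoters and 0 times in Procr. CACCC occurred 3 times in F3, 2 times in F2r, 1 time each in Procr and both Tfpi promoters and 0 times in Plaur. TATAAA occurred 1 time, in a Tfpi promoter, and ACGTG or GCGTG 2 times, both in F2r, and none of the letter sets contains another. A match describes letters and not a bound site.

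F3 (NM_010171, chr3:121426455-121437970 of mm9, plus strand), the trigger of clotting, rose after IR in the labelled Tet2-/- kidneys. Its level was 8.69, 6.29 and 10.02 FPKM in the 3 WT baseline libraries and 8.83, 8.07 and 6.62 FPKM in the labelled Tet2-/- baseline libraries. After IR it stood at 8.89, 32.5 and 27.1 FPKM in WT and at 75.7, 46.6 and 40.01 FPKM in labelled Tet2-/- libraries. The baseline groups overlapped, WT IR replicate 1 stayed within the baseline range, and all labelled Tet2-/- IR libraries exceeded all others. F3 was 5.78-fold higher after IR in labelled Tet2-/- kidneys (log2 fold change 2.53, SE 0.25, adjusted p = 0.000392). In WT kidneys the IR difference was 1.40 on the log2 scale (SE 0.46) with an adjusted p of 0.145, and without WT IR replicate 1 it was 1.79 with an adjusted p of 0.0155. Between genotypes after IR the log2 fold change was 1.14 (SE 0.48, adjusted p = 0.171), which is not past the threshold, and at baseline it was -0.0006 (SE 0.20).

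Tfpi (NM_001177319, chr2:84280880-84316916, minus strand), the inhibitor of the tissue factor step, had the lowest mean FPKM of the 9 genes in every group and was called in no comparison. WT baseline libraries held 1.39, 1.33 and 0.841 FPKM and labelled Tet2-/- baseline libraries 0.511, 0.781 and 0.857 FPKM. WT IR libraries held 0.761, 0.786 and 0.502 FPKM and labelled Tet2-/- IR libraries 0.671, 1.39 and 0.817 FPKM. The WT libraries were lower after IR than at baseline without overlap (log2 fold change -0.86, SE 0.27, adjusted p = 0.135), and all other pairs of groups overlapped. Within a library the ratio of F3 to Tfpi was 4.74 to 11.9 in WT baseline, 7.72 to 17.3 in labelled Tet2-/- baseline, 11.7 to 54.1 in WT IR and 33.4 to 113 in labelled Tet2-/- IR libraries. These ratios, computed after seeing the data, overlapped between the genotypes both at baseline and after IR.

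F2r (NM_010169, chr13:96371744-96388388, minus strand) encodes the main receptor through which thrombin signals. Baseline levels were 6.49, 6.42 and 3.31 FPKM in WT and 2.67, 6.83 and 5.17 FPKM in labelled Tet2-/- libraries. After IR the WT libraries held 8.51, 7.42 and 2.12 FPKM, and the labelled Tet2-/- libraries held 23.0, 22.4 and 8.64 FPKM. The lowest labelled Tet2-/- IR library lay just above the highest WT IR library. F2r rose 3.02-fold after IR in labelled Tet2-/- kidneys (log2 fold change 1.60, SE 0.43, adjusted p = 0.0195), a call that was lost without labelled Tet2-/- baseline replicate 1 (adjusted p = 0.05004), baseline replicate 3 (0.0534) or IR replicate 1 (0.0597). Between genotypes after IR the log2 fold change was 1.503 (SE 0.51, adjusted p = 0.108), and DESeq2 called it (1.49, adjusted p = 0.0189).

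Thbd (NM_009378, chr2:148230207-148233924, minus strand) encodes thrombomodulin, the endothelial cofactor that redirects thrombin. Its level was 3.42, 2.90 and 1.91 FPKM in WT baseline and 1.99, 2.70 and 2.13 FPKM in labelled Tet2-/- baseline libraries. WT IR libraries held 3.90, 2.79 and 0.951 FPKM, while labelled Tet2-/- IR libraries held 17.97, 11.3 and 5.97 FPKM. All labelled Tet2-/- IR libraries were above the other 9 libraries. Thbd rose 4.29-fold after IR in labelled Tet2-/- kidneys (log2 fold change 2.10, SE 0.36, adjusted p = 0.00312), and in WT the IR difference was -0.20 (SE 0.45, adjusted p = 0.833). Between genotypes after IR its log2 fold change of 2.13 (SE 0.54) had an adjusted p of 0.0510, just outside the threshold. It was called with DESeq2 (2.12, adjusted p = 0.000525), with all 12 libraries in 1 fit (2.13, adjusted p = 0.00997) and with no filter (2.14, adjusted p = 0.0467).

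Procr (NM_011171, chr2:155576953-155581214, plus strand), the receptor that presents protein C to the thrombin and thrombomodulin complex, was 2.99-fold higher after IR in labelled Tet2-/- than in WT kidneys. Baseline levels were 2.79, 3.41 and 1.57 FPKM in WT and 3.94, 3.11 and 3.56 FPKM in labelled Tet2-/- libraries. WT IR libraries held 3.3, 3.91 and 2.36 FPKM and labelled Tet2-/- IR libraries 7.73, 9.91 and 12.5 FPKM. The groups did not overlap after IR and overlapped at baseline. The genotype difference after IR was 1.58 on the log2 scale (SE 0.26, adjusted p = 0.0178), and it lost its call without WT IR replicate 1 (1.59, adjusted p = 0.0676) or WT IR replicate 3 (1.45, adjusted p = 0.0571). IR raised Procr in labelled Tet2-/- kidneys by 1.26 (SE 0.23, adjusted p = 0.00442), and in WT the difference was 0.23 (SE 0.31, adjusted p = 0.693).

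Proc (NM_001042768, chromosome 18, 32282780 to 32297859 of mm9, minus strand), the precursor of the anticoagulant protease, was the gene of the set that was called lower. WT baseline libraries held 139.9, 194.5 and 136 FPKM and labelled Tet2-/- baseline libraries 157, 139 and 157 FPKM. After IR it was at 115, 110.3 and 103 FPKM in WT and at 43.3, 40.1 and 55.1 FPKM in labelled Tet2-/- libraries. The ranges fell into 3 separate levels, with both baseline groups on top, WT IR in the middle and labelled Tet2-/- IR at the bottom. Between genotypes after IR Proc was 2.51-fold lower (log2 fold change -1.33, SE 0.19, adjusted p = 0.0132), and without labelled Tet2-/- IR replicate 1 the value was -1.28 with an adjusted p of 0.0501. It fell 3.88-fold after IR in labelled Tet2-/- kidneys (-1.95, SE 0.20, adjusted p = 0.000395), and the difference of -0.58 (SE 0.16) in WT had an adjusted p of 0.101.

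Proximal tubule transcripts were lower in the same libraries as Proc. The summed FPKM of 10 proximal tubule markers was 3945 to 4775 in WT baseline, 4226 to 4913 in labelled Tet2-/- baseline, 2632 to 3431 in WT IR and 879 to 1541 in labelled Tet2-/- IR libraries, and 5 of the 10 were called lower between genotypes after IR (3.85% of all tested genes were). Per 100 FPKM of these markers, Proc stood at 2.87 to 4.93 in WT baseline, 3.15 to 3.71 in labelled Tet2-/- baseline, 3.36 to 4.19 in WT IR and 2.81 to 4.88 in labelled Tet2-/- IR libraries. On this scale, added after seeing the data, all 4 groups overlapped. The hepatocyte marker sum was 26.0 to 37.3 in WT IR and 8.25 to 28.7 FPKM in labelled Tet2-/- IR libraries, and its part in the Proc level was not tested. In whole kidneys fewer cells of a type and less RNA per cell cannot be told apart.

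Endothelial markers shifted in the direction of Thbd and F2r between genotypes after IR, and none was called. Over the 12 markers the median log2 fold change was 0.89 between genotypes after IR (0.04 over all tested genes), -0.98 for IR in WT (-0.03), 0.06 for IR in labelled Tet2-/- kidneys (0.04) and 0.91 for the difference between the IR effects (0.10). The summed FPKM of 12 endothelial markers was 85.6 to 197 in WT baseline, 97.6 to 126 in labelled Tet2-/- baseline, 23.1 to 107 in WT IR and 87.7 to 177 in labelled Tet2-/- IR libraries, and edgeR called 0 of the 12 in any comparison (at most 2 with an unadjusted p under 0.05, and at most 1 called by DESeq2). Per 100 FPKM of these markers Thbd was at 1.47 to 2.38 in WT baseline, 2.03 to 2.13 in labelled Tet2-/- baseline, 3.58 to 4.12 in WT IR and 6.39 to 13.9 in labelled Tet2-/- IR libraries. F2r on that scale was at 3.27 to 4.53, 2.74 to 5.4, 7.95 to 9.5 and 9.85 to 17.8 in the same order of groups. For both genes the WT IR libraries lay above the WT baseline libraries and the labelled Tet2-/- IR libraries above the WT IR libraries, without overlap. In WT the marker sums shifted lower after IR, and without this scale the IR difference was -0.20 for Thbd and 0.06 for F2r on the log2 scale. The scale was not among the planned results. Procr differed from Thbd and F2r, with 3.08 to 10.2 in WT IR and 5.6 to 14.3 in labelled Tet2-/- IR libraries, which overlapped, while its baseline groups did not (1.73 to 1.95 in WT and 2.46 to 4.03 in labelled Tet2-/- libraries). Tfpi overlapped in the genotype comparisons at 0.675 to 0.983, 0.523 to 0.816, 0.711 to 2.17 and 0.518 to 0.932.

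**Figure D3:**
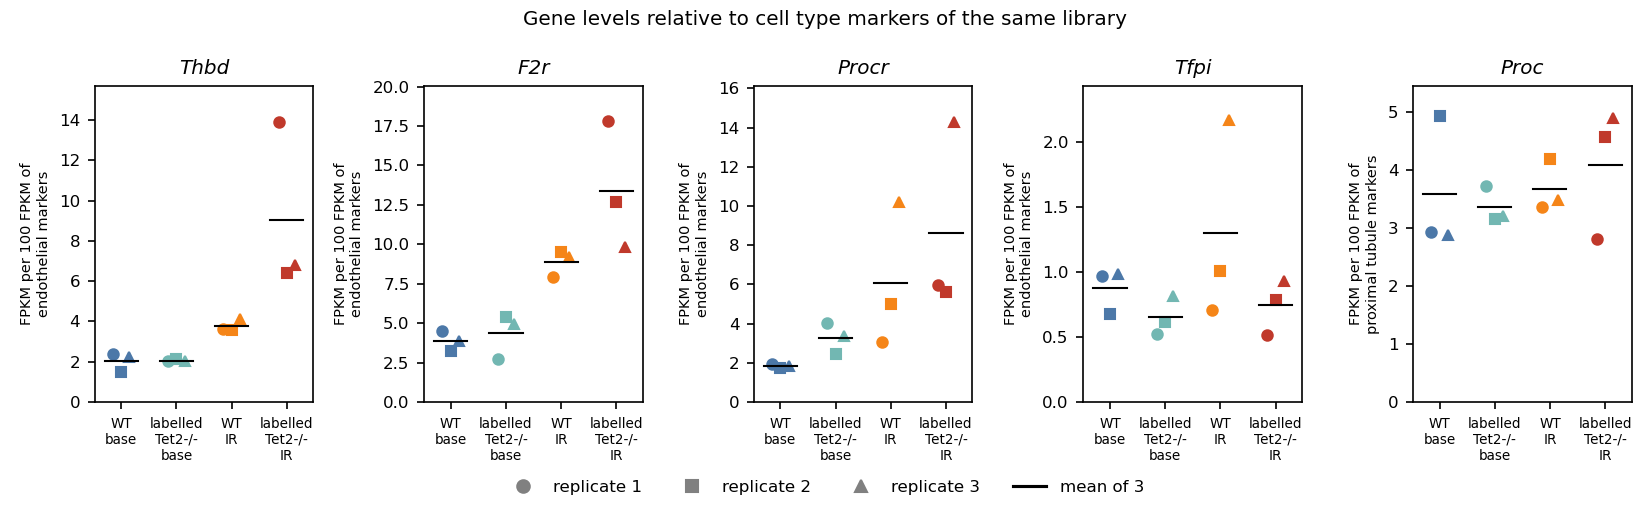
FPKM of Thbd, F2r, Procr and Tfpi per 100 FPKM of 12 summed endothelial markers, and of Proc per 100 FPKM of 10 summed proximal tubule markers, in each library (symbols) with the mean of 3 (line). Thbd and F2r step up from WT IR to labelled Tet2-/- IR libraries without overlap, and Proc overlaps in all 4 groups.

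Plau (NM_008873, chr14:21655884-21662610, plus strand), which encodes urokinase, was the most abundant of the 9 transcripts by mean FPKM in each group. Baseline levels were 154, 111 and 259.7 FPKM in WT and 196, 191 and 153 FPKM in labelled Tet2-/- libraries. IR libraries held 236, 342 and 266 FPKM in WT and 568, 443 and 292 FPKM in labelled Tet2-/- mice. The genotypes overlapped at both times, and the labelled Tet2-/- IR libraries lay above all baseline libraries. The rise after IR in labelled Tet2-/- kidneys was 2.01-fold (log2 fold change 1.01, SE 0.25, adjusted p = 0.0156), at the edge of the fold limit. It was under that limit with the replicate number as a block (0.97, adjusted p = 0.00897) and with DESeq2 (0.99). The call held in 3 of 6 fits with a library left out, and was lost without labelled Tet2-/- baseline replicate 2 (1.04, adjusted p = 0.0509), baseline replicate 3 (0.91, adjusted p = 0.0707) or IR replicate 1 (0.74, adjusted p = 0.0398). In WT the IR difference was 0.62 (SE 0.33, adjusted p = 0.321).

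Plat (NM_008872, chr8:23868194-23893320, plus strand) encodes tissue plasminogen activator and was the gene whose baseline levels differed most between genotypes. WT baseline libraries held 13.9, 55.2 and 19.1 FPKM, and labelled Tet2-/- baseline libraries held 5.09, 6.21 and 5.05 FPKM. IR libraries held 9.54, 25.3 and 19.2 FPKM in WT and 25.5, 46.9 and 48.7 FPKM in labelled Tet2-/- mice. WT libraries spread widely at both times, with replicate 2 highest, and labelled Tet2-/- libraries rose from below all WT baseline libraries to above all WT IR libraries. The lowest labelled Tet2-/- IR library lay just above the highest WT IR library. Between genotypes after IR the log2 fold change was 1.07 (SE 0.39, adjusted p = 0.128) with edgeR, and DESeq2 called it (1.07, adjusted p = 0.0406). The baseline genotype difference of -2.34 on the log2 scale (SE 0.49) had an adjusted p of 0.224 with edgeR, and DESeq2 gave 4.8e-05. Without WT baseline replicate 2 the difference was -1.51 (adjusted p = 0.127). Plat and Plaur were the 2 genes whose labelled Tet2-/- baseline libraries lay below all WT baseline libraries, which held for 16.5% of all tested genes, and none was above them (3.06% of all). Plat rose 6.21-fold after IR in labelled Tet2-/- kidneys (2.63, SE 0.26, adjusted p = 0.000383), and in WT its IR difference was -0.75 (SE 0.56), or 0.08 without WT baseline replicate 2. That library was also high in collecting duct markers, with a summed FPKM of 893 over 5 genes against 484 to 489 in the other WT baseline libraries, and low in thick ascending limb markers (763 over 4 genes against 1727 and 1899). The part of these cells in the Plat difference was not tested.

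The balance of the plasminogen activators differed between libraries. Plau exceeded Plat 30.4 to 38.5 times in labelled Tet2-/- baseline libraries and 2.01 to 13.6 times in WT baseline libraries. After IR the ratio was 13.5 to 24.7 in WT and 5.99 to 22.2 in labelled Tet2-/- libraries. The genotypes were apart at baseline and overlapped after IR on this scale, which was added after seeing the data.

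Plaur (NM_011113, chr7:25247519-25260892, plus strand), the urokinase receptor, had the greatest fold change of the 9 genes, that after IR in labelled Tet2-/- kidneys. Baseline levels were 3.53, 7.51 and 3.49 FPKM in WT and 3.34, 2.30 and 1.68 FPKM in labelled Tet2-/- libraries. After IR WT libraries held 4.93, 23.7 and 11.5 FPKM and labelled Tet2-/- libraries 61.4, 39.7 and 42.0 FPKM. WT IR replicate 1 was within the WT baseline range, and the labelled Tet2-/- IR libraries were above all others. The rise in labelled Tet2-/- kidneys was 16.5-fold (log2 fold change 4.04, SE 0.30, adjusted p = 0.000143). In WT kidneys the IR difference was 1.40 (SE 0.57, adjusted p = 0.201), and with the replicate number as a block it was 1.24 and passed the threshold (adjusted p = 0.0430). The genotype difference after IR was 1.76 (SE 0.51, adjusted p = 0.0734), and 2.37 without WT IR replicate 2 (adjusted p = 0.0382). It was called with DESeq2 (1.76, adjusted p = 0.00358), with all 12 libraries in 1 fit (1.76, adjusted p = 0.0307) and with limma at a pseudocount of 0.1 (2.07, adjusted p = 0.0486).

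Neutrophil markers were higher in the same IR libraries as Plaur and F3. After IR the summed FPKM of 8 neutrophil markers was 4.02 to 9.36 in WT and 74.3 to 131 in labelled Tet2-/- libraries, with 5 of the 6 tested called higher, and Mpo and Elane at 0 in all WT IR libraries. Only 3 of the 8 passed the low-count filter in the comparisons without labelled Tet2-/- IR libraries. Of all tested genes 2.3% were called higher between genotypes after IR and 3.85% lower. Over 12 macrophage markers the sum was 37.1 to 79.8 in WT IR and 69.1 to 250.1 in labelled Tet2-/- IR libraries, with 2 of 12 called higher, and the genotypes overlapped. Over 8 platelet markers it was 2.64 to 5.45 and 5.10 to 12.3, with 1 of the 6 tested called higher and 1 lower, and the genotypes overlapped there too. Over 5 podocyte markers the sum was 3.23 to 24.9 in WT IR and 42.9 to 87.8 in labelled Tet2-/- IR libraries, without overlap. Of these 5 markers 0 were called between genotypes after IR by edgeR, with 4 at an unadjusted p under 0.05, 3 called by DESeq2 and a median log2 fold change of 1.79, and 5 were called higher for IR in labelled Tet2-/- kidneys (12.7% of all tested genes were). The part of these cells in the levels of Plaur, F3 and the other genes was not tested.

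Of the 9 genes, 6 (F3, F2r, Thbd, Procr, Plat and Plaur) were higher without overlap in labelled Tet2-/- than in WT libraries after IR, where 22% of all tested genes were, and 1 (Proc) was lower without overlap, where 14.6% were. For IR in labelled Tet2-/- kidneys 7 were higher without overlap (40.5% of all) and 1 lower (17.9%), and for IR in WT 0 were higher (18.9%) and 2, Proc and Tfpi, lower (10.4%). The IR effect itself differed between genotypes for 4 genes when all 12 libraries were fitted together and the adjusted p alone made the call. Plat (difference of log2 fold changes 3.42, SE 0.69, adjusted p = 0.0143), Plaur (2.68, SE 0.70, 0.0377) and Thbd (2.34, SE 0.64, 0.0437) had a higher IR effect in labelled Tet2-/- than in WT kidneys, as did 3.79% of all tested genes, and Proc (-1.33, SE 0.25, 0.0116) a lower one, as did 5.39%. F3 (1.17, SE 0.58, adjusted p = 0.214), F2r (1.57, SE 0.71, 0.178), Procr (1.07, SE 0.40, 0.113), Tfpi (1.04, SE 0.44, 0.151) and Plau (0.43, SE 0.44, 0.566) had the same sign as Plat without a call. Proc and Plat kept their calls when any of the 12 libraries was left out, although the value of Plat was 2.54 without WT baseline replicate 2, while Thbd kept it only without WT IR replicate 1 or labelled Tet2-/- IR replicate 3 (adjusted p of 0.0522 to 0.106 in the other 10 fits). Plaur lost its call without WT baseline replicate 2, any labelled Tet2-/- baseline library, WT IR replicate 3 or labelled Tet2-/- IR replicate 1 (adjusted p of 0.0530 to 0.0967). Without labelled Tet2-/- IR replicate 3, one of the 3 libraries with most Adipoq, all 4 were called. Without the other 2, WT baseline replicates 2 and 3, WT baseline is left with 1 library, so whether the calls hold cannot be judged. The values there were -1.54 for Proc, 2.31 for Plat, 2.61 for Thbd and 2.20 for Plaur. Without all 3 of these libraries, with the same limit, the values were -1.74 for Proc, 2.09 for Plat, 2.90 for Thbd and 2.24 for Plaur.

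The levels also changed their order. At WT baseline the mean FPKM ran from Plau (174.7) and Proc (157), which overlapped, through Plat (29.4) and F3 (8.33) to Procr (2.59) and Tfpi (1.18). In WT IR kidneys Plau (281) and Proc (109) were each apart from the next gene, followed by F3 (22.9), Plat (18) and Plaur (13.4), whose ranges overlapped. In labelled Tet2-/- IR kidneys Plau (434) was followed by F3 (54.1), Plaur (47.7), Proc (46.2) and Plat (40.4), and these neighbours did not differ beyond their spread. Proc thus stood level with F3, Plaur and Plat in that group, and above each of them without overlap in the other 3 groups.

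The other genes of the pathway were 46 genes in 7 lists by role. Between genotypes after IR, 4 of the 37 tested were called higher (2.3% of all tested genes were) and 4 lower (3.85%). For IR in WT 3 of 37 were called higher (1.46%) and 1 lower (0.887%), for IR in labelled Tet2-/- kidneys 13 of 40 were called higher (12.7%) and 8 lower (11.6%), and at baseline 0 of 37 were called by edgeR or DESeq2, with 7 at an unadjusted p under 0.05. The IR effect differed between genotypes for 9 of 41, with 5 higher (3.79% of all) and 4 lower (5.39%).

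Among regulators of plasmin, Serpinf2, which encodes the plasmin inhibitor alpha 2 antiplasmin, was at 99.3, 85.1 and 74.9 FPKM in WT IR and at 32.7, 26.6 and 28.2 FPKM in labelled Tet2-/- IR libraries (log2 fold change -1.66, SE 0.16, adjusted p = 0.00989). It kept this call under every alternative tried, and the groups did not overlap. At baseline it stood at 227, 200.4 and 202 FPKM in WT and at 161, 175 and 186 FPKM in labelled Tet2-/- libraries, and it was called lower for IR in WT (-1.35, SE 0.14, adjusted p = 0.00964). Its IR effect differed between genotypes by -1.44 on the log2 scale (SE 0.21, adjusted p = 0.00409). Without WT baseline replicates 2 and 3, with 1 library left in WT baseline, the difference was -1.38. The call held with any 1 library left out. Over 10 proximal tubule markers the median log2 fold change was -1.665 between genotypes after IR, -1.462 for the difference between the IR effects and -0.577 for IR in WT. The part of these cells in the Serpinf2 level was not tested.

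Among 9 anticoagulants and inhibitors, 1 of the 8 tested was called higher after IR between genotypes (Pros1) and 1 lower (Proz). Pros1, which encodes protein S, the cofactor of activated protein C, was 2.24-fold higher after IR in labelled Tet2-/- than in WT kidneys (log2 fold change 1.17, SE 0.17, adjusted p = 0.0146), with 4.94, 5.77 and 4.07 FPKM in WT and 11.1, 15.3 and 9.21 FPKM in labelled Tet2-/- libraries. Without WT IR replicate 1 its adjusted p was 0.0545. Proz, which encodes protein Z, was lower (-2.04, SE 0.43, adjusted p = 0.0327). Of the 3 genes listed for vitamin K dependent carboxylation 0 were called higher and 1 lower, namely Vkorc1, the reductase that recycles vitamin K (-1.23, SE 0.26, adjusted p = 0.0325). Ggcx, the carboxylase itself, had a difference of -0.69 (SE 0.24, adjusted p = 0.111). Gas6, a vitamin K dependent ligand of TAM receptors, had a difference of -0.80 (SE 0.18, adjusted p = 0.0415), inside the fold limit, and its IR effect differed between genotypes (-0.94, SE 0.24, adjusted p = 0.0355). The IR effect also differed for Pros1 (1.28, SE 0.28, adjusted p = 0.0194), Vkorc1 (-1.14, SE 0.29, adjusted p = 0.0340) and Proz (-1.79, SE 0.51, adjusted p = 0.05, just inside the threshold before rounding).

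Clotting factors were mostly scarce in these kidneys, apart from Kng2 (group means of 85.1 to 145.5 FPKM) and F13b (8.53 to 27.1 FPKM). F10, the protease that activates prothrombin, passed the low-count filter only in comparisons that include labelled Tet2-/- IR libraries, the group where it was highest. It was higher after IR in labelled Tet2-/- than in WT libraries (0.198, 1.39 and 0.294 FPKM against 0.027, 0.022 and 0.038 FPKM, with 5 to 8 counts per library in WT), with a fitted log2 fold change of 4.26 (SE 0.86, adjusted p = 0.0294), or 3.02 (adjusted p = 0.0440) without labelled Tet2-/- IR replicate 2, the highest library. F13a1, the factor XIII subunit of macrophages and platelets that cross-links fibrin, was at 0.151, 0.233 and 0.061 FPKM in WT IR and at 0.880, 3.82 and 0.769 FPKM in labelled Tet2-/- IR libraries (3.51, SE 0.75, adjusted p = 0.0340), with a value of 2.47 (adjusted p = 0.0563) without that same library. F13b, its carrier subunit, was lower in labelled Tet2-/- IR libraries (-1.08, SE 0.21, adjusted p = 0.0288), and its IR effect did not pass the threshold for a difference between genotypes (-0.56, SE 0.56, adjusted p = 0.559). F2rl1, a protease receptor related to F2r, was named through its IR effect, which differed between genotypes by 1.74 (SE 0.45, adjusted p = 0.0380), as did those of F10 (4.05, SE 1.02, 0.0335) and F13a1 (3.94, SE 1.11, 0.0482). When a library was left out, the genotype call after IR held in 3 of 6 fits for F10 and in 1 of 6 for F13a1, F13b and Proz each, in 2 of 6 for Vkorc1 and in 5 of 6 for Pros1. With limma on log2(FPKM + 1), a scale that shrinks the change of low genes, the calls of F10 (0.59, adjusted p = 0.175), F13a1 (1.14, adjusted p = 0.101), Proz (-0.61, adjusted p = 0.0622) and F13b (-0.90, under the fold limit) were lost. At a pseudocount of 0.1 those of F10 (2.12, adjusted p = 0.0596) and F13b (-0.97) were. F13b also lost its call with library size alone (-0.97) and with all 12 libraries in 1 fit (-1.07, adjusted p = 0.0889), while F2rl1 was called in that fit (1.10, adjusted p = 0.0360) and with DESeq2 (1.09, adjusted p = 0.0158). The call for the difference between IR effects held in 11 of 12 fits with a library left out for Pros1, in 5 for Gas6, in 4 for F2rl1, in 3 each for F10, F13a1 and Vkorc1 and in 2 for Proz. Without the 3 libraries with most Adipoq, WT baseline is left with 1 library, so these calls cannot be judged there. Of the fibrinogen chains, chosen for mention after their values were seen, 2 of 3 were called higher after IR in WT (1.46% of all tested genes were) and 3 of 3 in labelled Tet2-/- kidneys (12.7%). Fga, the alpha chain, was at 3.303 to 10.08 FPKM in WT baseline, 26.6 to 132 in WT IR, 3.67 to 3.70 in labelled Tet2-/- baseline and 33.5 to 213 in labelled Tet2-/- IR libraries.

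**Figure D4:**
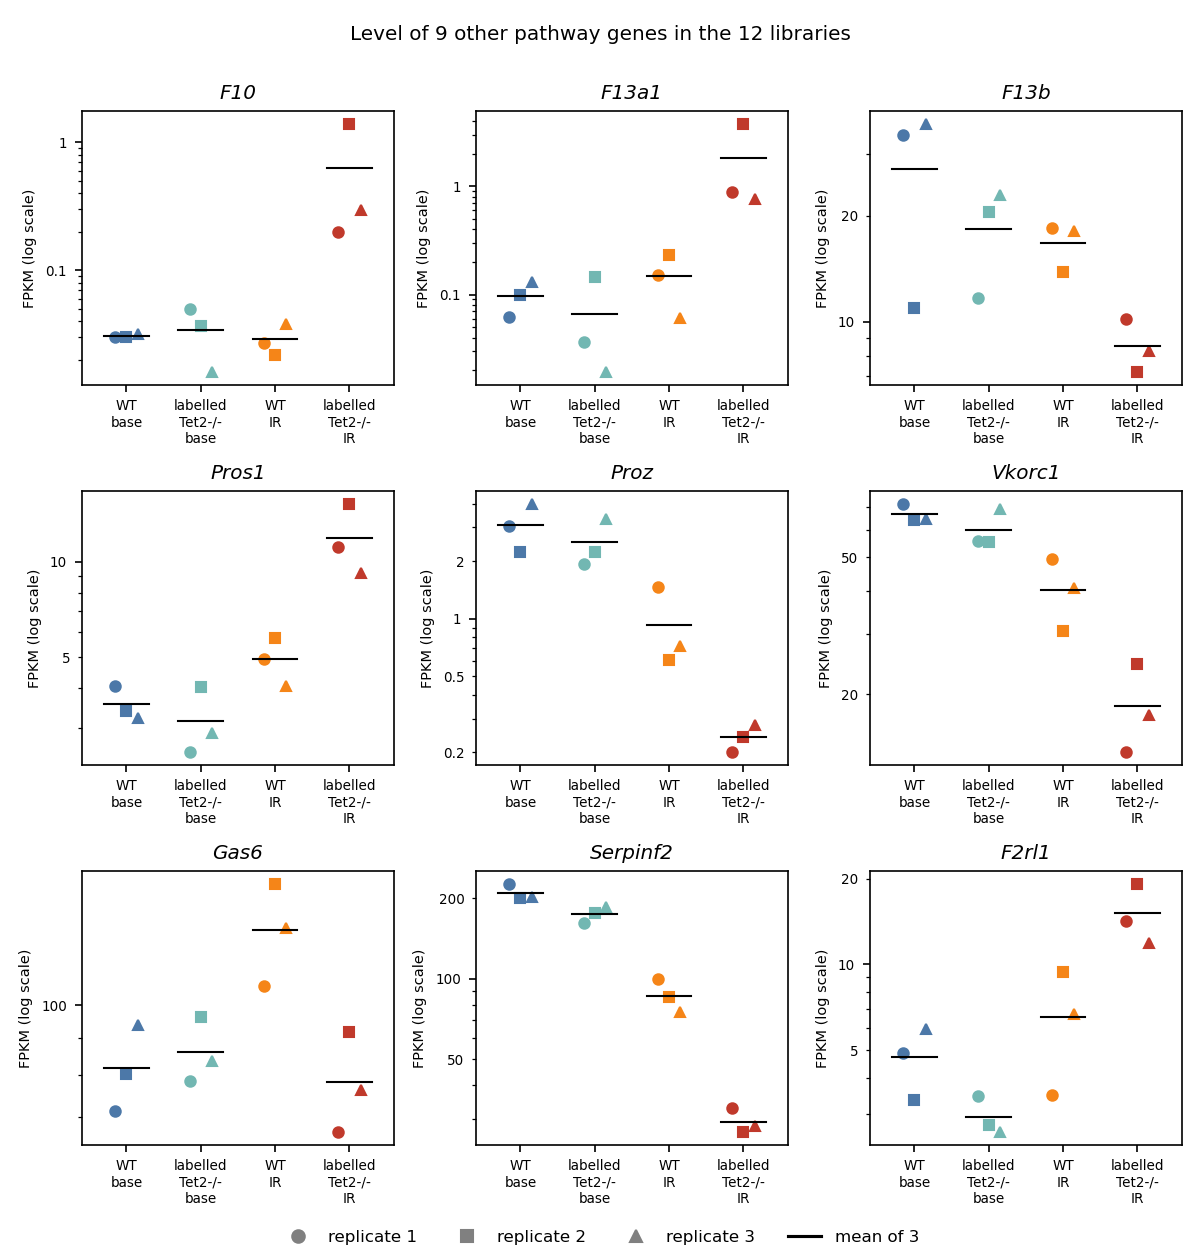
FPKM (log axis) of the 9 other pathway genes named above in each of the 12 libraries, with a symbol for each replicate and a line at the mean of 3. F10, F13a1, Pros1 and F2rl1 are higher without overlap in labelled Tet2-/- IR than in WT IR libraries, and Serpinf2, Proz, Vkorc1, F13b and Gas6 are lower. The genes were picked by calls in these same libraries, so their separation is not a result of its own. Of all tested genes 22% were higher and 14.6% lower without overlap.

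Genes with the most similar pattern over the 12 libraries were found by the root-mean-square difference of centred log2 CPM among 12196 genes whose mean FPKM was 1 or more. For F3 these were Rcan1 (0.295) and Adamts1 (0.342), for Plaur Maff (0.394) and Rin1 (0.406), and for Procr Prickle3 (0.281) and A230050P20Rik (0.291). Thbd was closest to F2r (0.341), another gene of the set, and then to Entpd1 (0.374). F2r was closest to Ecscr (0.232) and Lbp (0.287). The nearest pattern to Proc was that of Dcxr (0.170), then Lrpap1 (0.179), and for Plau it was that of Itgb2l (0.222), then Pus7 (0.243). Of these genes Plat had the least close partners, Sesn3 (0.449) and Klrg2 (0.486). The distances compare with each gene's own root-mean-square spread, which ran from 0.582 for Plau to 1.64 for Plaur among these 8 genes.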

How the data were processed

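Per the labels and methods, the authors mapped reads with STAR (mm9) and used HOMER for read counts on RefSeq genes. The methods call the deposited counts raw read counts. Their values rise in steps of 0.5 and are not whole in 38.7% of cases, for a reason not given in the sources used here, so the deposited values were handled like expected counts, without normalization, and rounded before each test, as the design had allowed. A second deposited table holds FPKM on the same transcripts.

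Of 34600 deposited transcripts of 24421 symbols, the one with the highest total was kept for the 5569 symbols with several. Each comparison used its own 6 libraries in edgeR 4.0.16 (R 4.3.3), with TMM, the standard filter for low counts, the quasi-likelihood F test, and p values adjusted over all tested genes by Benjamini-Hochberg. The standard error is the log2 fold change divided by the square root of F. Calls needed a log2 fold change over 1 or under -1 besides an adjusted p under 0.05, the limits of the study, and the interaction over 12 libraries an adjusted p under 0.05. All 9 members passed the filter in every comparison, with 115.5 to 146805.5 counts per library, and no other annotated gene overlaps them.

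The members and lists were chosen with earlier results of these data known. Named pathway genes are those called between genotypes after IR or in the interaction, up to 12, and the 2 most similar genes were taken for each member; some genes that these rules name are not reported here. Alternatives were DESeq2 1.42.0, limma 3.58.1 on log2(FPKM + 1) and log2(FPKM + 0.1), library size alone, upper quartile, no filter, a mean FPKM of at least 1, all 12 libraries in 1 fit, no fold limit, the replicate number as a block, the sum of a symbol's transcripts and each library left out. Same-numbered WT libraries moved together around the means of their groups (correlations of 0.337, 0.342 and 0.333 between baseline and IR), as did labelled Tet2-/- libraries (0.122, 0.344 and 0.186), so by these correlations alone the numbers may pair baseline with IR, although the mice differ. The main fits had no replicate block, and only the block alternative allowed for such pairing. The tests were tested on simulated data. Python 3.11.15 with matplotlib 3.10.9 made the figures.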

Additional observations from a re-analysis of the deposited data

Results flagged for a closer look

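The effect of IR differed between genotypes for 4 of the 9 genes in edgeR's test of the difference itself over all 12 libraries, where 3.79% of all tested genes had a higher and 5.39% a lower IR effect in labelled Tet2-/- kidneys. The number of genes was 2 to 4 with a library left out, where over all genes 147 to 980 were higher and 485 to 1064 lower (634 and 902 with all libraries). Without WT baseline replicates 2 and 3, WT baseline is left with 1 library, so the calls cannot be judged there. The difference of log2 fold changes, labelled Tet2-/- minus WT, was 3.42 for Plat, 2.68 for Plaur, 2.34 for Thbd and -1.33 for Proc. All 3 labelled Tet2-/- IR libraries were above all 3 labelled Tet2-/- baseline libraries for Plat, Plaur and Thbd and below them for Proc. In WT, the IR and baseline libraries overlapped for Plat, Plaur and Thbd and did not for Proc, which was lower after IR there too. Part of the Plat difference lies at baseline, where the labelled Tet2-/- libraries (5.05 to 6.21 FPKM) were below the WT libraries (13.9 to 55.2 FPKM).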

How the results depend on the processing

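Of 796 values of the 9 genes under an alternative, 714 kept their direction and their side of the threshold, 37 kept the direction and lost the call, 17 gained a call and 28 turned direction, none of them called before and none beyond 0.309 in size. Members called between genotypes at baseline numbered 0, and 1 with DESeq2. After IR they numbered 2 (over all genes 373 were called higher and 623 lower). They numbered 6 under DESeq2 (775 and 880), 4 with all 12 libraries in 1 fit (714 and 879) and 5 with the replicate block (477 and 616). With a library left out they numbered 1 to 3 (65 to 319 higher and 229 to 623 lower over all genes). DESeq2 added Thbd, F2r, Plat and Plaur there. For IR in WT they numbered 0 (over all genes 234 higher and 142 lower), with 1 under DESeq2 (490 and 492) and 1 with the replicate block (428 and 559). With a library left out they numbered 0 to 1 (41 to 365 higher and 37 to 183 lower over all genes). For IR in labelled Tet2-/- kidneys they numbered 8 (over all genes 2078 higher and 1896 lower), and 6 to 8 with a library left out (1647 to 2289 higher and 1607 to 2034 lower). For the difference between IR effects they numbered 4 (over all genes 634 higher and 902 lower), with 2 to 4 when a library was left out (147 to 980 higher and 485 to 1064 lower). WT baseline replicates 2 and 3 were also left out, alone or together with labelled Tet2-/- IR replicate 3. Both alternatives were chosen after seeing the data and leave WT baseline with 1 library, assumed to vary like the other groups, so their calls are not counted here.

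The value that moved furthest in turning direction was that of Plat for IR in WT, from -0.75 to 0.3091 without WT baseline replicates 2 and 3. At baseline F3 became 0.0001 with DESeq2, 0.0032 with the upper quartile, 0.0196 with the replicate block and up to 0.162 with a library left out, where it ranged down to -0.169. Proc became -0.0349 with library size alone and -0.0353 and -0.0354 with limma at a pseudocount of 1 and 0.1. With a library left out it ranged from -0.051 to 0.223, Thbd from -0.377 to 0.0045, F2r from -0.355 to 0.262 and Plau from -0.114 to 0.543. For IR in WT, F2r became -0.0093 with limma at a pseudocount of 0.1, -0.0708 with the replicate block and -0.2095 without WT baseline replicates 2 and 3. With a library left out F2r ranged from -0.254 to 0.450, Plat from -1.089 to 0.085, Procr from -0.017 to 0.487 and Thbd from -0.619 to 0.177. Tfpi for IR in labelled Tet2-/- kidneys ranged from -0.142 to 0.318.

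Without TMM, library size alone moved the median log2 fold change of all genes from 0.043 to 0.274 for IR in labelled Tet2-/- kidneys and from 0.103 to 0.241 for the difference between IR effects. The split of all called genes for IR in labelled Tet2-/- kidneys was 2078 higher and 1896 lower, and 2860 and 1397 with library size alone. For the difference between IR effects it was 634 and 902, and 1129 and 700. Over all genes DESeq2 called 23 higher and 297 lower at baseline (2 and 0 with edgeR) and 775 and 880 after IR (373 and 623). Between genotypes not every pair of same-numbered libraries deviated together (correlations of -0.172, -0.139 and 0.034 at baseline and -0.001, 0.199 and 0.291 after IR), so the block result there rests on shared numbers alone. After IR the block added calls of Thbd (2.19), F2r (1.59) and Plat (1.12), and Proz (adjusted p = 0.0508) and Vkorc1 (0.0600) were not called with it. The block changed no call for the IR effects beyond those of Plaur and Plau given above. Depth limits the value of F10, which had 5 to 8 counts per library in WT IR.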
